A study of Mus musculus with 2 samples.

Results

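The 10 genes described here encode transcription factors of the beta cell and of the islet as a whole: Mafa, Pdx1, Nkx6-1, Nkx2-2, Neurod1, Pax6, Isl1, Foxa2, Rfx6 and Insm1. They were taken by gene symbol from the 31053 genes of the deposited single-cell count matrices of mouse pancreatic islets. Both libraries held all 10, and none was lost to a filter on low counts in any of the 4 endocrine cell classes. The comparison asked how these genes are distributed among the hormone cell types and whether their levels differed between virgin and multipara mice. All mice were wild-type C57BL/6J females, 9 weeks old at the start. The multipara mice went through 3 pregnancies in succession and their islets were taken 3 weeks after the last delivery, while the virgin mice were age-matched controls. Islets were kept briefly in serum-containing medium and dispersed with trypsin, and 3′ end libraries with unique molecular identifiers (UMIs, tags that mark single captured RNA molecules) were prepared. There was 1 library per group and the labels do not say how many mice entered each, so variation between animals was not measured and no test between groups was run. Each interval below is a 95% interval for counting error alone, and each comparison is between these 2 libraries.

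Islet hormone cells arise from a common endocrine progenitor, and their identity is held in place by overlapping sets of transcription factors. MAFA, PDX1 and NKX6-1 are known for activating insulin and the glucose-sensing and secretory genes of mature beta cells, and PDX1 is also known from delta cells. NKX2-2, NEUROD1, PAX6 and ISL1 act throughout the endocrine islet. FOXA2 opens chromatin in endoderm and its derivatives, RFX6 acts in endocrine development and in mature beta cells, and INSM1 is a zinc finger repressor of transcription that endocrine cells need to differentiate.

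Sequencing gave 5463 barcodes with 94853806 UMIs in all for virgin islets. For multipara islets there were 5075 barcodes with 82503776 UMIs, and 7 barcodes occurred in both libraries. Cell classes were set by hormone UMIs. A cell entered the beta, alpha, delta or PP class when insulin (Ins1 and Ins2), Gcg, Sst or Ppy made up at least 5% of its UMIs and at least 80% of its UMIs of all 4 hormone groups. This gave 1862 virgin and 1670 multipara beta cells, 1035 and 640 alpha cells, 191 and 162 delta cells, and 87 and 90 PP cells. Median depth was 29923 and 31657 UMIs in beta cells, 16405 and 17395 in alpha cells, 10469 and 10440 in delta cells, and 22238 and 22601.5 in PP cells. Marker genes that were not used in the gate followed the labels in part. The alpha cell factor Irx2 stood at 104 and 94.3 CPM (UMIs of a gene over all UMIs of the class, scaled to 1e+06) in alpha cells, at 2.09 and 1.07 in beta cells and at 10.7 and 12.8 in PP cells. The delta cell factor Hhex stood at 351 and 383 CPM in delta cells and at 3.37 and 1.91 in beta cells. Lepr, listed as a delta cell marker, had 2 UMIs in virgin and none in multipara delta cells. Etv1, listed as a PP cell marker, was as high in alpha cells (226 and 259 CPM) as in PP cells (187 and 181). Endothelial and stromal markers summed to at most 9.98 CPM in every endocrine class. Cells with at least 3 UMIs over a set of endothelial, immune and stromal genes had been left out of these classes. The low sums were thus not independent of how the classes were made. Immune markers summed to 36.9 and 30.6 CPM in beta cells and to at most 10.9 in the other classes. The B cell gene Cd79a (33.0 and 12.7 CPM in beta cells) made up most of the sum in the virgin library alone. C1qb stood at 2.30 and 8.20 CPM in beta cells. Of the acinar and ductal markers, Cela1 stood at 108 and 130 CPM in delta cells and Spp1 at 346 and 429 CPM in PP cells.

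Free RNA set the lower limit of what could be read. Insulin transcripts, which alpha, delta and PP cells should not make in quantity, were present in those cells at 0.917%, 1.17% and 0.705% of their beta cell level in the virgin library and at 1.503%, 2.30% and 1.13% in the multipara library. A set of 525 virgin and 318 multipara non-endocrine cells (endothelial, immune or stromal by their markers, median depth 4706 and 5510 UMIs) held insulin at 1.59% and 3.03% of the beta cell level. These cells served as the background for each transcription factor. The background insulin level was thus higher in the multipara library in every class.

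The promoters of 2 of the genes are shown, Pdx1 because beta and delta cells shared it and Rfx6 because it differed most between the libraries in beta cells. Sequences are from RefSeq (build GRCm38.p6), 300 bases from 250 before to 50 after the annotated start, and the table matched 8 of the 10 genes, all but Mafa and Insm1, with 11 promoters. The Pdx1 promoter, at chr5:147269847-147270146 on the plus strand, is given with each E-box in capitals. The E-box, CANNTG, reads the same on both strands and is the core recognized by the NEUROD1 family. The first and the second of the 3 E-boxes lie side by side, and the first, CAAGTG, is also the core of the NKX2 class. The Rfx6 promoter, at chr10:51685268-51685567 on the plus strand, is given with each TAAT on either strand in capitals, TAAT being the core of many homeodomain factors such as PDX1, NKX6-1, PAX6 and ISL1. It holds 5 such matches, of which the last 2 overlap, and 1 E-box. This stretch lies inside the Rfx6 span given below (chr10:51677756-51730432), downstream of the start of that span. The RefSeq start used here and the start of that span are thus not the same.
Pdx1: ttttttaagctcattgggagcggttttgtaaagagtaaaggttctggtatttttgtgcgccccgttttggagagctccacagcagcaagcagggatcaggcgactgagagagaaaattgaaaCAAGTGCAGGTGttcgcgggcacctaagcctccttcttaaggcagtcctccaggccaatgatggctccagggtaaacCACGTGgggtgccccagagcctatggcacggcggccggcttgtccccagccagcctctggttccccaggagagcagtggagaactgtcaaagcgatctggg
Rfx6: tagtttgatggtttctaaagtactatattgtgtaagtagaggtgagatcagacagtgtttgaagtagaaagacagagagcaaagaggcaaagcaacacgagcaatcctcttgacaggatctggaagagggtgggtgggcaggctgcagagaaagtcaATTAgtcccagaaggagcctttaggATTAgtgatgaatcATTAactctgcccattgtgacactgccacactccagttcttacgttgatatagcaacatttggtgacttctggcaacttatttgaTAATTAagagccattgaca
Such short motifs are common. TAAT on either strand was present in 58.0% of all 32851 promoters in the table and in 7 of the 11 promoters of these genes, and the E-box in 72.3% and in 7 of 11. CAAGTG on either strand was present in 13.6% of all promoters and in 2 of the 11, those of Pdx1 and Nkx2-2. The forkhead motif TGTTTAC was present in 3.65% of all promoters and in none of the 11. A match is only a description of these letters.

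Mafa (chr15:75745490-75748228, minus strand, GRCm38), the activator of insulin transcription in mature beta cells, was a beta cell gene in both libraries. Its level in beta cells was 321 CPM (317 to 326) in the virgin and 335 (330 to 340) in the multipara library. It was 4.86 and 7.90 CPM in alpha cells, 6.12 and 12.3 in delta cells, and 3.05 and 4.58 in PP cells. All of these lay below the 9.07 and 16.8 CPM of the non-endocrine cells in the same library, so no Mafa expression could be read in alpha, delta or PP cells. The beta cell level was 68.7 times the mean of the other 3 classes in the virgin and 40.5 times in the multipara library. The lower ratio in the multipara library came with the higher background there.

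Nkx6-1 (chr5:101658139-101664996, minus strand), a homeodomain factor that keeps beta cells from taking on other endocrine identities, was high in beta cells and intermediate in PP cells. Virgin beta cells held 236 CPM (232 to 240) and multipara beta cells 217 (213 to 221). PP cells held 55.9 (46.0 to 67.4) and 42.6 (34.4 to 52.2), alpha cells 16.4 and 16.0, and delta cells 11.3 and 7.04. The non-endocrine background was 2.19 and 7.51. PP cells thus stood well above the background and above alpha and delta cells in both libraries, with intervals that did not overlap. The beta cell level exceeded that of PP cells 4.22-fold (3.50 to 5.14) and 5.08-fold (4.14 to 6.30). In delta cells the multipara value rested on 12 UMIs and was inside the interval of the background (4.38 to 12.0).

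Pdx1 (chr5:147269959-147275848, plus strand), the homeodomain factor needed for pancreas formation and later for insulin transcription, was shared by beta and delta cells. Beta cells held 105 CPM (102 to 108) in the virgin and 90.5 (87.8 to 93.3) in the multipara library, and delta cells 98.9 (85.9 to 113) and 88.6 (75.1 to 104). The beta to delta ratio was 1.06 (0.92 to 1.22) and 1.02 (0.87 to 1.21), and the order of these classes was not resolved on this scale. PP cells held 11.2 and 12.8 CPM, 10.7% and 14.2% of the beta cell level, and alpha cells 3.18 and 3.63. The non-endocrine background was 1.88 and 2.65, and the alpha cell values lay inside its counting intervals (0.688 to 4.08 and 0.973 to 5.77). That background rested on 6 UMIs in each library. A free RNA level was also taken for each class, from its insulin level relative to beta cells. For Pdx1 in alpha cells it was 0.961 and 1.36 CPM. The alpha cell values were 3.31 and 2.67 times that level, against 1.13 and 0.966 times in non-endocrine cells. Whether alpha cells held Pdx1 was thus not settled.

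With beta cells more than 2 times above the mean of the other classes in both libraries, Mafa, Nkx6-1 and Pdx1 were 3 of 10 members, where 4.27% of the 13795 genes with enough UMIs passed the same limit. Isl1 was the only member under 1/2 of that mean in both libraries, where 19.7% of genes were.

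Isl1 (chr13:116298281-116309689, minus strand), a LIM homeodomain factor of all islet hormone cells, was highest in delta cells. The level was 435 CPM (407 to 464) in virgin and 423 (393 to 455) in multipara delta cells. Alpha cells held 212 and 211, PP cells 134 and 156, and beta cells 119 (116 to 122) and 118 (115 to 121). The background was 6.88 and 8.84. Beta cells were at 0.27 times (0.26 to 0.29) and 0.28 times (0.26 to 0.30) the delta cell level. Beta and PP cells, the lowest neighbors, did not differ beyond counting error in the virgin library (ratio 0.89, 0.79 to 1.01) but did in the multipara library (0.75, 0.68 to 0.84).

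Pax6 (chr2:105668900-105697364, plus strand), a paired box factor required for glucagon and insulin cells, was also highest in delta cells, at 218 CPM (199 to 239) and 201 (181 to 224). Beta cells held 146 and 134, alpha cells 125 and 103, and PP cells 105 and 107. All 4 classes were far above the background of 1.88 and 4.42. The spread between the highest and lowest class was 2.08-fold and 1.95-fold. Pax6os1, annotated on the opposite strand and overlapping the 5′ end of Pax6, stood at 8.15 and 6.40 CPM in beta cells and at 16.0 and 17.6 in delta cells. Whether the counting used strand is not stated in the sources used here, so the split of reads between such pairs is uncertain.

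Neurod1 (chr2:79452521-79456751, minus strand), a basic helix-loop-helix activator of insulin transcription, was highest in beta and alpha cells and lowest in PP cells, with a spread of 2.30-fold in the virgin and 2.36-fold in the multipara library. Beta cells held 135 CPM (132 to 138) and 122 (119 to 125), alpha cells 124 and 115, delta cells 89.9 and 92.2, and PP cells 58.5 and 51.8. The order of the classes was the same in both libraries, although beta and alpha cells did not differ beyond counting error in the multipara library (ratio 1.06, 0.998 to 1.13). Neurod1 lies within the annotated span of Cerkl on the same strand, which had 471 and 377 UMIs in beta cells against 7156 and 5806 for Neurod1.

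Nkx2-2 (chr2:147177546-147194243, minus strand), a homeodomain factor whose loss turns beta cells toward other endocrine fates, was the most even of the 10 genes when scaled to all UMIs. Beta cells held 63.5 and 58.8 CPM, alpha cells 78.1 and 69.1, delta cells 65.9 and 59.3, and PP cells 59.985 and 67.4. The highest class exceeded the lowest only 1.30-fold in the virgin and 1.17-fold in the multipara library. With the hormone transcripts left out of the scale, its multipara levels spanned 86.2 to 162 CPM, wider than the 71.7 to 120 of Foxa2. Scaled to all UMIs, alpha cells were above beta cells in both libraries (beta to alpha ratio 0.81, 0.76 to 0.87, and 0.85, 0.79 to 0.92). Without the hormone transcripts that order turned, with 165 and 158 CPM in beta against 130 and 121 in alpha cells.

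Foxa2 (chr2:148042877-148046969, minus strand), the forkhead factor, held 50.7 and 44.9 CPM in beta cells, 41.1 and 41.0 in alpha cells, 58.8 and 61.0 in delta cells, and 29.5 and 38.0 in PP cells. Delta cells were highest in both libraries, but in the virgin library not beyond counting error from beta cells (beta to delta ratio 0.86, 0.72 to 1.04).

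Rfx6 (chr10:51677756-51730432, plus strand), the winged-helix factor, was highest in delta cells, at 41.9 CPM (33.6 to 51.6) and 48.7 (38.8 to 60.4). Beta cells held 22.5 (21.2 to 23.8) and 17.3 (16.2 to 18.6), alpha cells 22.1 and 23.7, and PP cells 8.13 and 5.04 from 16 and 11 UMIs. Scaled to all UMIs, beta and alpha cells were at the same level within counting error in the virgin library (ratio 1.02, 0.90 to 1.15). Beta cells were lower than alpha cells on that scale in the multipara library (0.73, 0.64 to 0.84). With the hormone transcripts left out of the scale, beta cells were above alpha cells in both libraries (58.4 and 46.5 against 36.9 and 41.4 CPM).

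Insm1 (chr2:146221921-146225020, plus strand), the zinc finger repressor, was high in delta and beta cells and lower in alpha and PP cells. Delta cells held 174 CPM (157 to 193) and 194 (173 to 216), beta cells 139 (136 to 142) and 113 (110 to 116), alpha cells 58.5 and 60.7, and PP cells 48.3 and 38.5. The beta to delta ratio was 0.80 (0.72 to 0.89) in the virgin and 0.58 (0.52 to 0.65) in the multipara library.

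**Figure D1:**
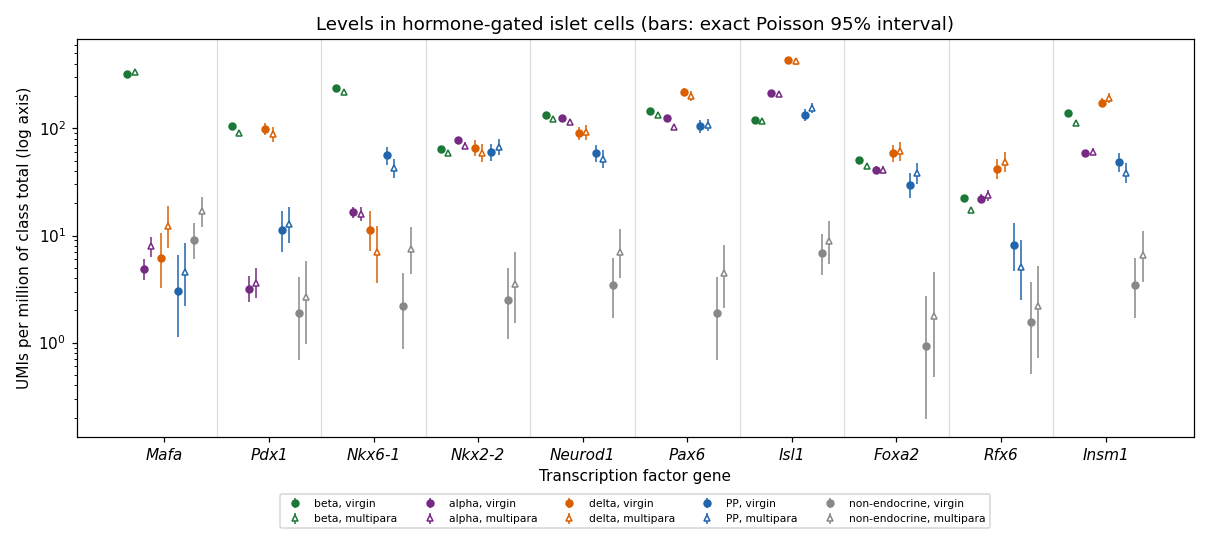
CPM (log axis) of the 10 transcription factor genes in beta, alpha, delta, PP and non-endocrine cells of the virgin (filled circles) and multipara (open triangles) libraries, with exact Poisson 95% intervals. Mafa stands above the non-endocrine cells in beta cells only, Pdx1 is level in beta and delta cells at 105 and 98.9 in the virgin library, and Isl1 is highest in delta cells at 435 and 423.

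Delta cells held the highest level of 5 genes (Pax6, Isl1, Foxa2, Rfx6 and Insm1) in both libraries on this scale, but the scale itself bears on comparisons between classes. The islet peptide transcripts Ins1, Ins2, Gcg, Sst, Ppy, Pyy and Iapp took up 61.5% and 62.7% of all UMIs in beta cells, 40.1% and 42.8% in alpha cells, 29.1% and 31.2% in delta cells, and 55.9% and 58.4% in PP cells. Scaled to the remaining UMIs, Pdx1 stood at 272 and 243 CPM in beta cells against 139 and 129 in delta cells, so that beta cells were the higher class. Insm1 stood at 360 and 304 in beta cells against 246 and 282 in delta cells, which turned the order of these classes. The order also turned in both libraries for Pax6, at 378 and 359 in beta against 307 and 293 in delta cells, and for Foxa2, at 132 and 120 against 82.97 and 88.8. Of the 5 genes, Isl1 and Rfx6 kept their highest level in delta cells, Rfx6 by little in the virgin library (59.1 against 58.4 in beta cells) and at 70.8 against 46.5 in the multipara library. The log2 ratio of beta cells over the mean of the other classes moved from 0.57 to 1.17 in the virgin and from 0.50 to 1.10 in the multipara library for Neurod1, which made it the fourth gene past 2-fold in both libraries. For Insm1 it moved from 0.57 to 1.26 in the virgin library, past 2-fold, and from 0.21 to 0.92 in the multipara library, under it. For Isl1 it moved from -1.13 to -0.45 and from -1.16 to -0.52, no longer under 1/2, and delta cells still had the highest level (613 and 615 CPM against 309 and 316 in beta cells). Nkx2-2 moved from -0.10 and -0.15 to 0.46 and 0.36, Pax6 from -0.034 and -0.036 to 0.59 and 0.56, and Rfx6 from -0.10 and -0.57 to 0.61 and 0.17, so that the direction was turned. Foxa2 turned in the multipara library alone, from -0.057 to 0.52, and moved from 0.23 to 0.85 in the virgin library. The beta cell excess of Mafa, Nkx6-1 and Pdx1 was larger under each of the 3 other scalings.

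**Figure D2:**
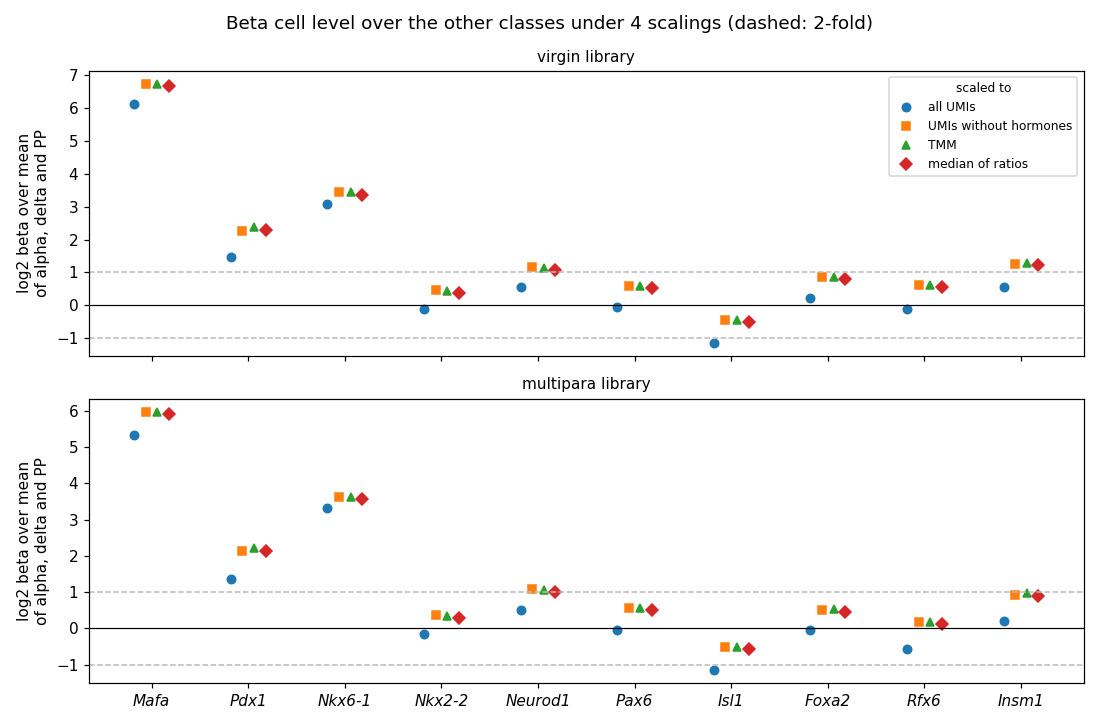
Log2 ratio of the beta cell level over the mean of alpha, delta and PP cells for each gene in each library, with levels scaled to all UMIs, to UMIs without the islet peptide transcripts, by TMM or by median of ratios. Dashed lines mark 2-fold, which Mafa, Pdx1 and Nkx6-1 pass under all 4 scalings in both libraries and Neurod1 under 3. Insm1 passes under the same 3 in the virgin library alone, at 1.22 to 1.29, while Isl1 is under the lower line only when scaled to all UMIs.

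Between the libraries, the genes in beta cells differed little. None of the 10 was past 1.5-fold in beta cells, where 14.9% of the 14237 genes tested were. Mafa was the only member that was higher in multipara beta cells, by 0.060 on the log2 scale (0.029 to 0.092), a change of 4.27%. The other 9 were lower, and for 8 of them the counting interval left out 0. The differences were -0.38 (-0.51 to -0.25) for Rfx6, -0.29 (-0.34 to -0.24) for Insm1, -0.21 for Pdx1, -0.18 for Foxa2, -0.14 for Neurod1, -0.12 for both Nkx6-1 and Pax6, and -0.11 for Nkx2-2. Isl1 differed by -0.018 (-0.070 to 0.034), within counting error. The median of the 10 was -0.13, against -0.10 over all genes tested in beta cells, of which 66.7% were below 0. Relative to that median, Rfx6 was lower by a log2 value of -0.28, Insm1 by -0.20 and Pdx1 by -0.12, Mafa was higher by 0.16, and Nkx6-1, Nkx2-2, Neurod1 and Pax6 lay between -0.044 and -0.014.

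Rfx6 and Insm1 differed between the libraries in beta cells but had the other sign in alpha and delta cells, where their intervals held 0. The share of all genes with such a difference between classes was not counted. The Rfx6 level went from 22.5 to 17.3 CPM in beta cells, from 22.1 to 23.7 in alpha cells and from 41.9 to 48.7 in delta cells. The log2 ratio in alpha cells was 0.10 (-0.14 to 0.33) and in delta cells 0.22 (-0.23 to 0.67), neither overlapping the beta cell interval. The Insm1 level went from 139 to 113 in beta cells, from 58.5 to 60.7 in alpha cells and from 174 to 194 in delta cells. Its log2 ratio was 0.055 (-0.089 to 0.20) in alpha cells and 0.15 (-0.065 to 0.37) in delta cells. In PP cells both genes had negative ratios whose intervals held 0, at -0.69 (-1.94 to 0.51) and -0.33 (-0.77 to 0.11).

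In alpha cells the only member past 1.5-fold was Mafa, at 0.70 (0.25 to 1.16), where 12.8% of genes were past it. Mafa went from 4.86 to 7.90 CPM there, both under the non-endocrine background, and insulin transcripts in alpha cells went from 0.917% to 1.503% of the beta cell level. With a free RNA level taken from insulin subtracted, the Mafa log2 ratio was 0.58, just under the limit. With each cell weighted equally it was 0.31, well under it, while Pdx1 passed at 0.67. The Pdx1 level in alpha cells lay inside the counting interval of the non-endocrine cells. Pax6 was lower in multipara alpha cells, at -0.28 (-0.38 to -0.17), and Nkx2-2 at -0.18 (-0.31 to -0.047) and Neurod1 at -0.10 (-0.21 to -0.0029) were near the all-gene median of -0.10. In delta cells Mafa (1.01) and Nkx6-1 (-0.68) were past 1.5-fold, where 17.3% of genes were. They rested on 13 and 21 UMIs and on 24 and 12 UMIs, and both intervals held 0. In PP cells the members past the limit were Mafa (0.59, from 6 and 10 UMIs) and Rfx6 (-0.69), where 22.7% of genes were, again with intervals that held 0. With genes of at least 50 UMIs the share of all genes past 1.5-fold was 5.12% in alpha, 6.91% in delta and 7.40% in PP cells, and of the 8 members tested in delta and in PP cells 0 were past it. The median of the 10 genes was -0.0060 in alpha, -0.0020 in delta and 0.10 in PP cells, against -0.10, -0.09 and -0.12 over all genes tested.

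**Figure D3:**
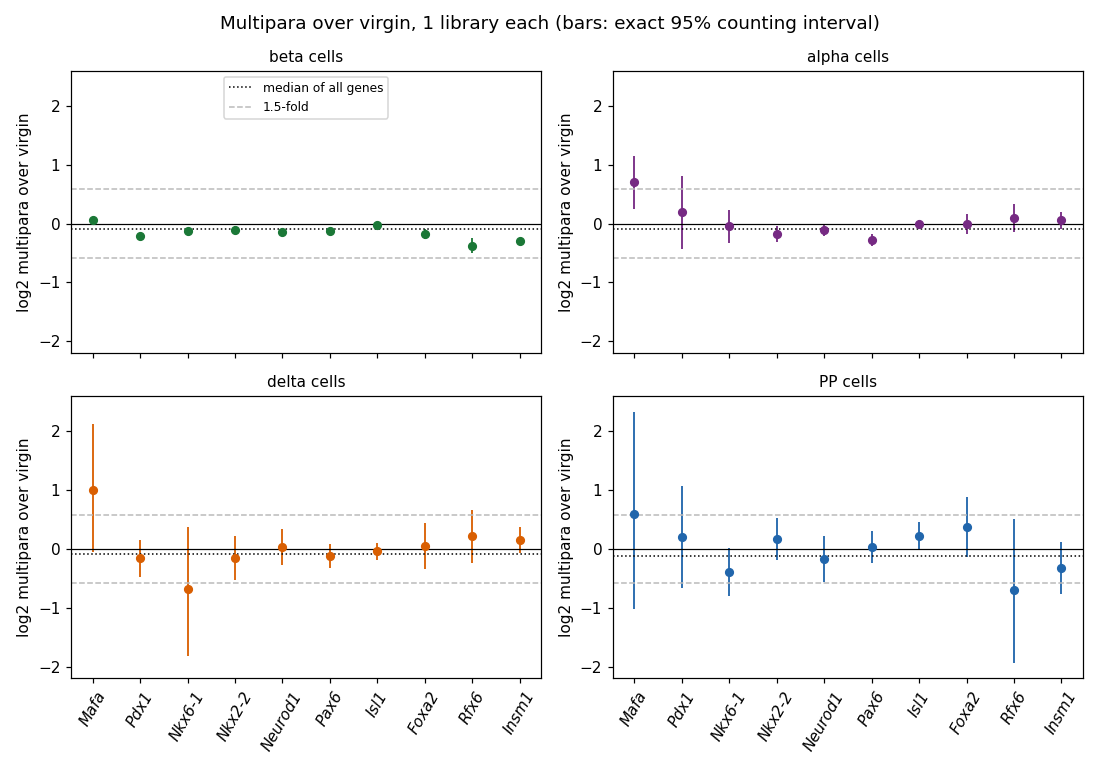
Log2 ratio of the multipara over the virgin library for each gene in beta, alpha, delta and PP cells, with exact 95% counting intervals, the median of all genes tested in that class (dotted) and the 1.5-fold limits (dashed). In beta cells every gene lies inside the limits, between -0.38 for Rfx6 and 0.060 for Mafa, and the wide intervals in delta and PP cells reflect few UMIs.

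Beta cells of low depth differed from the rest, which was seen when each cell was weighted equally and then examined further. There were 173 virgin and 259 multipara beta cells with fewer than 5000 UMIs (9.29% and 15.5% of beta cells), with a median of 1928 and 1327 UMIs and 775 and 590 genes. In these cells Pax6 stood at 275 CPM (225 to 333) in the virgin and 486 (422 to 558) in the multipara library, and Isl1 at 151 (114 to 195) and 294 (244 to 351). Insm1 went the other way, at 205 (163 to 256) and 74.6 (50.7 to 106). Nkx6-1 was 509 (440 to 586) and 354 (299 to 416), and Mafa was 421 (359 to 491) and 397 (339 to 463). Insulin made up 37.6% and 28.5% of the UMIs of these shallow cells, against 56.8% and 58.3% in the deeper ones, and the median mitochondrial share was 4.62% and 3.77%. The part of depth in these differences was not tested. In beta cells with at least 5000 UMIs, Pax6 was 145 and 131 CPM, Isl1 119 and 116, and Insm1 138 and 114, close to the values for all beta cells. Weighted equally by cell, the log2 ratio in beta cells was 0.24 for Pax6, 0.24 for Isl1, -0.43 for Insm1 and -0.12 for Rfx6, so that the Pax6 and Isl1 directions were turned.

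The share of cells with a UMI followed the levels. Cells were thinned to 5000 UMIs each to remove the effect of depth. This left out 173 virgin and 259 multipara beta cells, and 294 and 137 non-endocrine cells. After thinning, Mafa was found in 68.9% (66.6 to 71.1) of virgin and 71.4% (68.9 to 73.7) of multipara beta cells, against 88.4% and 85.7% before. In non-endocrine cells it was found in 2.597% and 3.31%. Alpha cells, at 2.63% and 4.30%, and PP cells, at 1.22% and 3.37%, were within the interval of that background. Nkx6-1 was found in 67.3% and 65.4% of beta cells and in 26.8% (17.6 to 37.8) and 20.2% (12.4 to 30.1) of PP cells, against 0.866% and 3.31% of non-endocrine cells. Pdx1 was found in 40.0% and 36.7% of beta cells and in 38.6% and 34.6% of delta cells. Isl1 was found in 86.8% and 85.0% of delta cells but in 42.7% and 41.0% of beta cells. Insm1 was found in 51.3% (48.9 to 53.7) of virgin and 43.6% (41.0 to 46.2) of multipara beta cells, and in 47.1% (39.8 to 54.5) and 63.4% (55.2 to 71.0) of delta cells. The delta cell values come from 1 random thinning, and before it the shares were 79.1% (72.6 to 84.6) and 81.5% (74.6 to 87.1), with overlapping intervals at nearly equal median depth. A difference in the delta cell share was thus not established. No non-endocrine share of any of the 10 genes was above 5.52%.

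**Figure D4:**
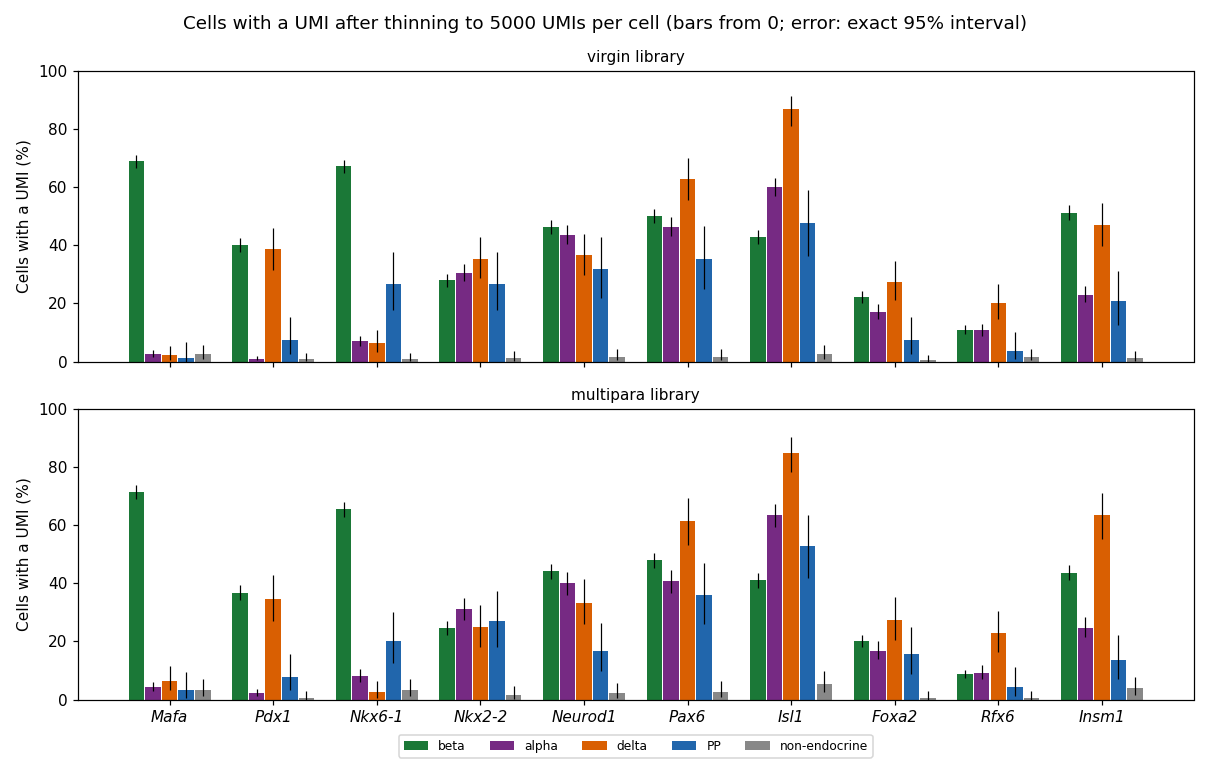
Percentage of cells with at least 1 UMI of each gene after thinning each cell to 5000 UMIs, by cell class, in the virgin (top) and multipara (bottom) libraries, with exact 95% intervals. Mafa and Nkx6-1 stand out in beta cells, at 68.9% and 67.3% in the virgin library, Isl1 in delta cells at 86.8%, and non-endocrine cells stay at or under 5.52%.

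Single cells showed only some of the 10 genes at this depth. The median number of genes with a UMI was 4 in virgin and 4 in multipara beta cells, 2 and 2 in alpha cells, 4 and 3 in delta cells, 2 and 2 in PP cells, and 0 in non-endocrine cells. No beta cell showed all 10, and 5 of 1689 virgin and 8 of 1411 multipara beta cells showed none. In alpha cells, 5.47% and 5.12% showed none. Among non-endocrine cells, 87.0% and 77.9% showed none. Among beta cells the UMIs per thinned cell varied more than counting alone would give for Mafa, with a variance of 1.56 and 1.66 times the mean and up to 10 and 13 UMIs in a cell. For Nkx6-1 this ratio was 1.21 and 1.205, for Isl1 1.18 and 1.24, for Neurod1 1.28 and 1.14, and for Rfx6 1.01 and 0.974. The ratio grows with the mean, and divided by the mean the excess was 0.37 and 0.40 for Mafa, 0.17 and 0.18 for Nkx6-1, 0.40 and 0.22 for Neurod1, and 0.30 and 0.40 for Isl1, so that Mafa was not set apart in this respect. Across beta cells the Pearson correlations of the 45 gene pairs lay between -0.090 and 0.091 in 1689 virgin cells and between -0.046 and 0.065 in 1411 multipara cells, which in such sparse counts is no finding.

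**Figure D5:**
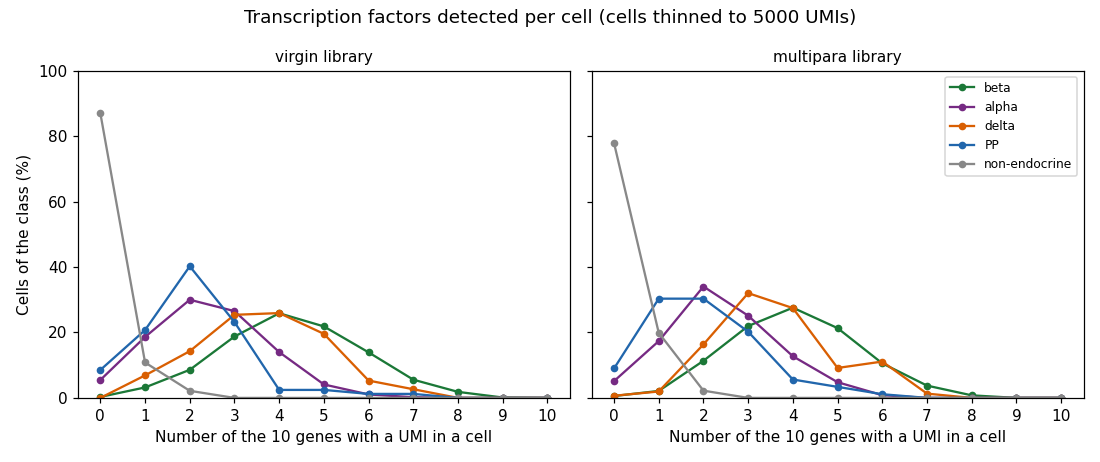
Percentage of cells by the number of the 10 genes with a UMI, in cells thinned to 5000 UMIs, for each cell class in the virgin (left) and multipara (right) libraries. Beta and delta cells peak at 3 or 4 genes, alpha cells at 2, PP cells at 1 or 2, and 87.0% and 77.9% of non-endocrine cells have none.

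Partner genes at the same loci were also counted. Plut, annotated on the strand opposite to Pdx1 and overlapping it, stood at 16.2 CPM (15.1 to 17.3) in virgin and 23.4 (22.0 to 24.8) in multipara beta cells, from 859 and 1111 UMIs. Its log2 ratio was 0.53 (0.40 to 0.66), while that of Pdx1 was -0.21 (-0.27 to -0.15). In delta cells Plut had 8 and 3 UMIs, or 3.77 and 1.76 CPM. Pdx1 was as high there as in beta cells when scaled to all UMIs. With the islet peptide transcripts left out of the scale, Pdx1 was higher in beta cells (272 and 243 against 139 and 129 CPM). Pax6os1 in beta cells differed by -0.35 (-0.57 to -0.13), and Nkx2-2os had 1 UMI in each library over delta cells and at most 1 in beta cells.

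Other transcription factors of the islet were listed beside these genes. Of 24 genes, 22 had enough UMIs in beta cells, 5 were higher and 17 lower in the multipara library, and the median was -0.16, where 66.7% of all genes tested were below 0 with a median of -0.10. Ssbp3, a cofactor of LIM homeodomain complexes, had the highest log2 ratio at 0.070 (-0.024 to 0.16). Past 1.5-fold, where 14.9% of all genes were, was 1 of the 22, Neurog3, the factor that starts endocrine differentiation, at -2.09 (-3.12 to -1.17) from 57 and 12 UMIs, and it was highest in delta cells at 45.2 and 27.0 CPM. In beta cells of both libraries, Mnx1 and Mlxipl were more than 2 times above the mean of the other classes, where 4.27% of all genes were. Mlxipl was not above delta cells in the virgin library (90.6 against 90.9 CPM). Neurog3, Meis2, Etv1 and Tcf7l2, 4 of the 22, were under 1/2 of the mean of the other classes, where 19.7% of all genes were. Irx2, a factor of alpha cells, and Hhex, the delta cell factor, were also under 1/2 of that mean in beta cells of both libraries. In beta cells both were past 1.5-fold lower in the multipara library, Irx2 at -0.96 (-1.47 to -0.47) from 111 and 51 UMIs and Hhex at -0.81 (-1.20 to -0.44) from 179 and 91. The marker lists of the other hormone cells were also lower in multipara beta cells, with sums of 2902 and 1843 CPM for the alpha, 1431 and 810.1 for the delta and 1945 and 929 for the PP markers. Their part in these differences was not tested.

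Of 18 genes known as targets of these factors, 17 were found by symbol. In both libraries, 13 of them were more than 2 times above the mean of the other classes in beta cells, where 4.27% of all genes were. Among the 13 were Slc2a2, G6pc2, Ucn3 and Iapp. The list was made of genes known from beta cells, so the count of 13 is not independent of its choice. Not all 13 were highest in beta cells. Slc30a8 was higher in alpha cells (516 and 453 CPM) than in beta cells (503 and 360) on the scale of all UMIs. Npy stood at 23.5 CPM in multipara delta cells against 23.3 in beta cells. Nnat and Kcnj11 were under 1/2 of the mean of the other classes, where 19.7% of all genes were. Between the libraries the median of the 17 in beta cells was -0.033, with 7 higher and 10 lower. Past 1.5-fold, again against 14.9% of all genes, was 1 of the 17, Npy, a neuropeptide, at 15.4 and 23.3 CPM, or 0.60 (0.47 to 0.73). The lowest was Slc30a8, the zinc transporter of insulin granules, at 503 and 360 CPM, or -0.49 (-0.51 to -0.46).

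The genes whose level over the 8 class and library values was most like that of a beta cell factor were found among 5370 genes by Pearson correlation of log2 levels with 1 added. For Mafa they were Ins2 and Ins1 (both r = 0.999) and Tmem215 (r = 0.995). Ins1 and Ins2 define the beta class, so their profile over the classes was set by the gate. For Nkx6-1 they were Impdh1 (r = 0.964), Tmem163 (r = 0.947) and Ntrk2 (r = 0.946), and for Pdx1 they were Mlxipl (r = 0.998), Cd63 (r = 0.997) and Spock2 (r = 0.990). The 8 values come from 2 libraries and share their background, so these are descriptions. Mlxipl, the carbohydrate response factor ChREBP, stood at 90.6 and 78.3 CPM in beta and at 90.9 and 74.6 in delta cells.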

How the data were processed

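The authors deposited raw UMI counts per gene and barcode from 10x 3′ v3.1 libraries. The submitters' processing notes name Cell Ranger 3.1.0, Seurat 3.0 and the GRCm38 (mm10) build. Cells were kept with under 60000 UMIs, above 200 and below 6000 genes, and a mitochondrial share below 10%, as in the study. Those with at least 3 UMIs over 9 endothelial, immune and stromal genes were left out of the 4 classes. The hormone gate removed 346 virgin and 279 multipara cells of mixed hormones. No doublet caller was run, so pairs of the same cell type can remain.

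UMIs were summed per class and library and scaled to 1e+06 (python 3.11.15, numpy 2.4.6, scipy 1.17.1, pandas 2.3.3). Levels have exact Poisson intervals, ratios exact conditional binomial ones and shares Clopper-Pearson ones. With 1 library per group there was no test. Alternative scalings used TMM (edgeR 4.0.16) and median of ratios (DESeq2 1.42.0, R 4.3.3). Genes needed 10 UMIs. Ratio and interval code was tested on simulated data. Gene positions are from GENCODE M21. All 10 genes are named, with partner genes at their loci. Some listed genes are not reported here. Of each list, the highest, the lowest and those past 1.5-fold in beta cells are named. Genes and lists were chosen with earlier results of these data known.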

Additional observations from a re-analysis of the deposited data

Results flagged for a closer look

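For Rfx6 the log2 ratio of multipara over virgin had opposite signs in different cell classes, with counting intervals that did not overlap. The ratio was 0.48 higher in alpha than in beta cells and 0.59 higher in delta than in beta cells. For Insm1 the same held, with differences of 0.35 for alpha cells and 0.45 for delta cells. These differences between classes were not tested, since each group was 1 library. The alpha and delta cell intervals of both genes held 0, so the sign there was not resolved. The share of all genes that meet the same rule was not counted. The beta cell values kept their sign under all 15 alternatives for both genes. In alpha cells Rfx6 was at -0.082 with thinned cells, against 0.10 as reported.

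Plut, which lies opposite to Pdx1 and was outside the 10 genes, had more UMIs in multipara than in virgin beta cells, with a log2 ratio of 0.53. It was chosen after its values were seen.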

How the results depend on the processing

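No paired analysis was possible because each group was 1 library. The number of the 10 genes with beta cells more than 2 times above the mean of the other classes was 3 under 12 alternatives and 4 under the 3 other scalings. In beta cells none of the 10 genes passed 1.5-fold under any of the 15 alternatives on cells and scaling. A 1.2-fold limit was passed by 2, Rfx6 and Insm1, where 34.9% of all genes tested passed it. The median log2 ratio in beta cells stayed below 0, at -0.23 with cells thinned to 5000 UMIs, -0.044 with TMM and -0.037 with median of ratios. At 1.2-fold the counts were 2 in alpha, 2 in delta and 5 in PP cells. Of all genes tested, 34.9%, 47.5% and 52.5% passed that limit in these classes. In alpha cells 2 genes passed 1.5-fold with thinned cells and with the top 5% of cells by UMIs left out. In delta cells 1 gene passed with hormone dominance 90%, without the cell filter, with equally weighted cells and with median of ratios. In PP cells the count was 0 with dominance 90%, 1 without the cell filter, with at least 5000 UMIs per cell, with TMM and with median of ratios, and 6 with thinned cells. The share of all genes past the limit was not taken under these settings. Nkx6-1 in delta cells, called on 24 and 12 UMIs, went to 0.22 without the cell filter. Subtraction of a free RNA level was added after the data were seen, and left Mafa at 0.58 in alpha, 0.96 in delta and 0.025 in PP cells. With genes of at least 50 UMIs, 7.60% were past 1.5-fold in beta cells, 5.12% in alpha, 6.91% in delta and 7.40% in PP cells, and the members past it were 0, 1, 0 and 0. The causes were not tested. Delta and PP cells were few, which limits what their depth can show.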
